A study of Mus musculus with 29 samples.

Results

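The RNA-seq library of the insoluble fraction of C2C12 cells was set against the library of the membrane fraction and against that of the cytosol fraction. These 3 libraries are the whole RNA-seq set of a series of 29 samples, and each fraction has 1 library. C2C12 is a mouse myoblast line that fuses into muscle fibres when serum is lowered. All libraries compared here came from proliferating cells, grown in DMEM with fetal bovine serum and given no drug. In the 3′ end fit below, 8 gradient libraries of differentiating cells also entered the estimate of the spread. The deposited table covers 11733 genes. A gene entered a comparison when each region had at least 20 reads in both libraries, which left 3951 genes for insoluble against membrane and 3217 for insoluble against cytosol. In all 3 libraries together 3110 genes met that rule. The steps that separated the fractions, and what was discarded between them, are not given in the sources used here, so that the insoluble fraction is known only by its label and by the transcripts in it. The 8 gradient libraries of proliferating cells made with 3′READS+, which reads transcript ends beside the poly(A) tail, served as a separate readout. They comprise 2 replicates each of membrane polysome, membrane monosome, cytosol polysome and cytosol monosome RNA. Whether replicates are separate cultures is not stated, so p-values measure the spread between these libraries, which may be technical.

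Secreted and membrane proteins are made by ribosomes docked on the endoplasmic reticulum (ER), and their mRNAs therefore sediment with membranes. mRNAs of cytosolic, nuclear and most mitochondrial proteins are translated on free ribosomes. Material that stays insoluble when cells are extracted with a mild detergent commonly holds nuclei, with transcripts not yet exported, and the cytoskeleton, with what is attached to it. A gene with 2 poly(A) sites in its last exon makes a short and a long 3′ untranslated region (3′ UTR). The constitutive part (cUTR) lies before the first site and is in both forms, while the alternative part (aUTR) lies between the sites and is in the long form alone. Gene level was therefore taken from cUTR reads, as CPM (the cUTR count scaled to a common cUTR total for every library), and isoform use from the ratio of aUTR to cUTR reads.

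The insoluble, membrane and cytosol libraries held 4283570, 6521105 and 4415706 reads in both regions together, of which 59.8%, 58.8% and 52.2% lay in the aUTR. With 1 library per fraction there is no replicate error and no test, and no difference below has a replicate check. Intervals are 95% intervals, exact Poisson for CPM and exact binomial for shares, and cover counting error only, since reads without molecular identifiers are not independent molecules. Both comparisons use the same insoluble library, so a deviation of that library enters both. CPM sets each library to the same total, so that a transcript enriched in a fraction cannot be told apart from one left over when others are fewer, and fewer cells of a type cannot be told apart from less RNA per cell.

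Markers of each fraction were examined first. The 8 transcripts translated at the ER, among them Hspa5, Calr and Col1a1, summed to 4214.4 CPM in the insoluble library, 6462.8 CPM in the membrane library and 122.7 CPM in the cytosol library. Of the 9 cytosol-translated transcripts, 8 were in the table and summed to 8832.1 CPM in the insoluble, 8208.1 CPM in the membrane and 11630.0 CPM in the cytosol library. The cytosol library thus held few ER-bound transcripts, whereas the insoluble library held both kinds. None of the 13 nuclear long noncoding RNAs looked up, such as Malat1, Neat1, Xist and Meg3, was in the table, and nor was Gapdh, so nuclear content could not be read from them. Of 7 myoblast markers 5 were present, and they summed to 2683.3, 1557.5 and 1384.0 CPM in the insoluble, membrane and cytosol libraries. Des had 1573, 798 and 812 CPM, whereas Cdh15 was highest in membrane, with 67.4, 122.75 and 4.26 CPM. Of 13 markers of differentiated muscle 8 were present, at 17.4, 4.8 and 3.3 CPM in the same order, with Myh3 and Ttn at 0 cUTR reads in every library. These sums rest on few reads: Neb had 13, 0 and 1 cUTR reads, whereas Tnnt1 had 2, 5 and 5. Of 4 adipocyte markers 3 were present, at 7.6, 15.6 and 19 CPM, with Adipoq at 0. Of 5 macrophage markers 3 were present, at 15.1, 4.5 and 1.9 CPM, with Ptprc at 0 and Csf1r at 1.74, 3.35 and 1.42 CPM. The part of other cell types in the results was not tested.

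The insoluble library differed from both others in a sizeable set of genes. Against membrane, 753 genes were at least 2-fold higher in the insoluble library and 328 at least 2-fold lower (19.1% and 8.3% of 3951). Against cytosol, 811 genes were at least 2-fold higher and 708 at least 2-fold lower (25.2% and 22% of 3217). A total of 354 genes were at least 2-fold higher than in both other libraries (11.4% of 3110), and 90 were at least 2-fold lower than in both (2.89%). They are called insoluble-high and insoluble-low below, and since the values themselves chose them, their folds are a description. The insoluble-high genes held 10.1% of cUTR reads in the insoluble library, 2.8% in the membrane library and 2.0% in the cytosol library. Of these, 49 were at least 4-fold and 6 at least 8-fold higher than in both. The insoluble-low genes held 1.1%, 2.7% and 5.3% of cUTR reads in the same libraries, and 1 of them was at least 4-fold lower than in both. At the threshold, Kif2c, Eif4ebp3 and Rfx7 lay just inside the insoluble-high set, each with a smaller log2 ratio of 1.001, and Vps54 and Fcho2 just outside at 0.997. The median gene was 0.19 higher (log2) in insoluble than in membrane and 0.02 higher than in cytosol. With TMM scaling these medians were -0.01 and -0.08 (log2), and the split against membrane was 567 higher and 485 lower. Against cytosol TMM scaling gave 742 higher and 775 lower, so which side held more genes depended on the scaling. With the median set to 0 the split was 576 higher and 470 lower against membrane, and 796 and 720 against cytosol.

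**Figure D1:**
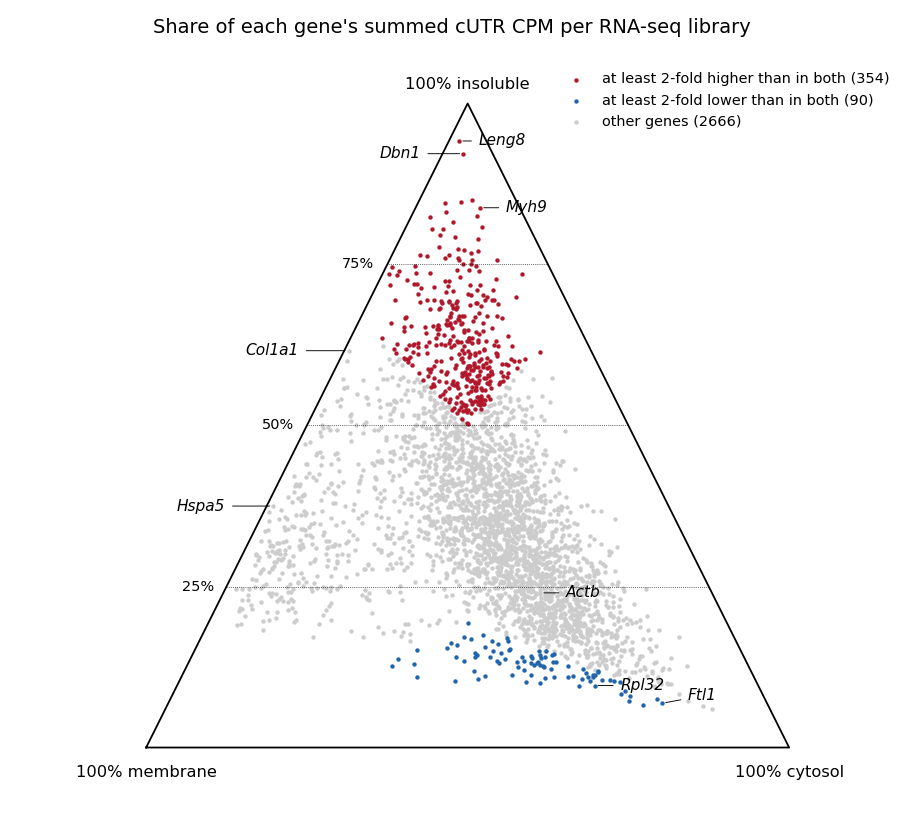
Each point is 1 of 3110 genes, placed by the share of its cUTR CPM, summed over the libraries, that came from the insoluble (top corner), membrane (left corner) or cytosol library (right corner); dotted lines mark 25%, 50% and 75% from insoluble. The 354 insoluble-high genes (red) run up to Leng8 and Dbn1 near the top, the 90 insoluble-low genes (blue) lie along the base, and Hspa5 and Col1a1 lie on the left edge with almost no cytosol share.

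Leng8, whose product is not well characterised, led the ranking by the smaller of its ratios against both libraries. It had 1376 CPM (interval 1321 to 1433) in the insoluble library, 61.4 CPM (52.4 to 71.5) in the membrane library and 23.7 CPM (17.6 to 31.2) in the cytosol library. Its log2 ratio was 4.48 (4.26 to 4.72) against membrane and 5.83 (5.46 to 6.29) against cytosol. In the aUTR, a separate set of reads of the same libraries scaled to their own total, Leng8 had 392, 36.0 and 13 CPM in insoluble, membrane and cytosol, so that the insoluble library was highest in both regions. Dbn1, which encodes the actin-binding protein drebrin, had 492 CPM in insoluble, 24.6 CPM in membrane and 17.1 CPM in cytosol. Sec16b, a protein of ER exit sites, had 220 CPM in insoluble, 17.5 CPM in membrane and 21.3 CPM in cytosol. The next in rank were Actn4, Myh9, Mbd6, Srrm2, Kmt2d, Actn1 and Zfp512b, which are taken up with their groups. These 10 genes were ranked on their cUTR values, so that the separation of their cUTR intervals is no check on them. Their aUTR reads were also higher in insoluble than in both, from 2.23 (log2, Actn1) to 3.52 (Myh9) against membrane and from 2.73 (Zfp512b) to 4.87 (Leng8) against cytosol. Among genes ranked against membrane alone, Mdm4, an inhibitor of p53, had 238 CPM in insoluble, 15.6 CPM in membrane and 70.1 CPM in cytosol. Ubp1, a transcription factor, had 140, 14.1 and 30.8 CPM in the same order, and Zscan26, a zinc finger protein, had 105, 11.2 and 33.6 CPM.

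**Figure D2:**
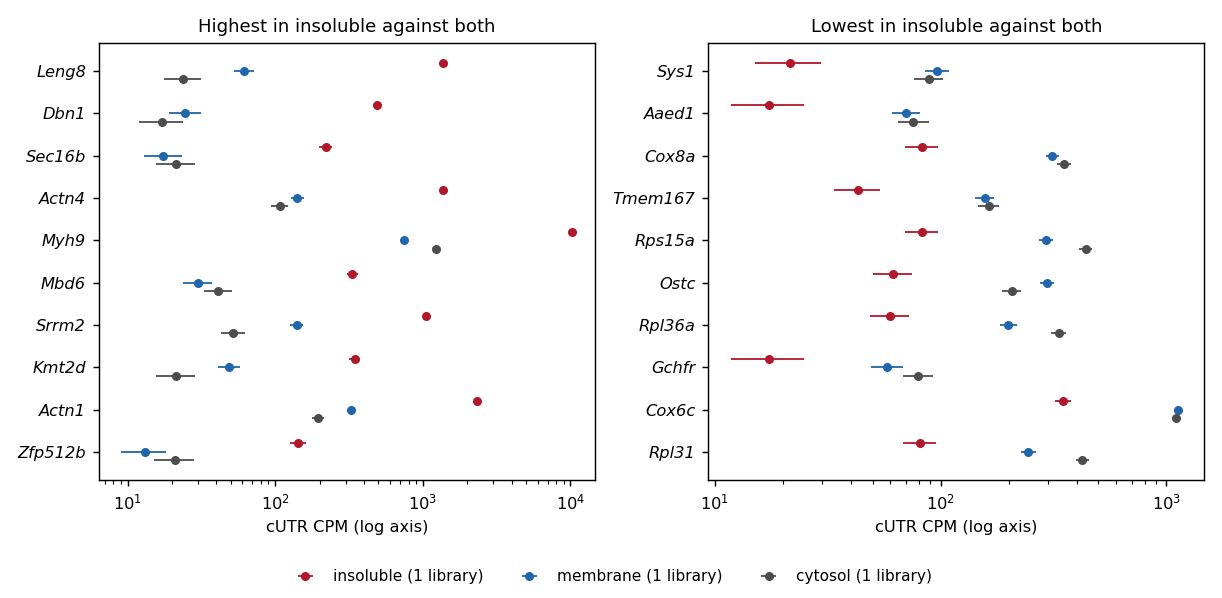
cUTR CPM (log axis) of the 10 genes highest (left) and the 10 lowest (right) in the insoluble library against both others, 1 library each; bars are exact Poisson 95% intervals for counting error. Insoluble points of Leng8 and Dbn1 lie more than 10-fold to the right of both others, while on the right side Ostc has 61.6 CPM in insoluble against 295 CPM in membrane and 207 CPM in cytosol.

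Genes of the actin cytoskeleton and of focal adhesions were split against cytosol. Of 39 genes of this list in the table, 33 passed the read filter. Of these, 10 (30.3%) were at least 2-fold higher than in membrane and 0 lower, while 9 (27.3%) were higher and 18 (54.5%) lower than in cytosol. Among all 3110 genes, 18.1% were at least 2-fold higher and 7.65% lower than in membrane, and 25.6% higher and 22.5% lower than in cytosol, so that the actin list's share of genes higher than in cytosol was near the background. Myh9, the heavy chain of non-muscle myosin IIA, had 10188 CPM in insoluble, 746 CPM in membrane and 1222 CPM in cytosol, with log2 ratios of 3.77 (3.70 to 3.84) and 3.06 (3.00 to 3.12). Actn4 and Actn1, the alpha-actinins that cross-link actin filaments, behaved alike: Actn4 had 1375 CPM in insoluble, 141 CPM in membrane and 107 CPM in cytosol. Actn1 had 2318 CPM in insoluble, 328 CPM in membrane and 195 CPM in cytosol. The 7 insoluble-high members include the myosin heavy chains Myh9 and Myh10 and the alpha-actinins Actn1 and Actn4. Cttn, Pxn and Vasp, which act at adhesions and actin branches, were past 2-fold against membrane (log2 1.7, 1.5 and 1.17) but not against cytosol (0.86, 0.05 and 0.28). Vcl and Tln2, which link integrins to actin, showed the reverse, with 0.30 and 0.88 against membrane and 2.48 and 1.89 against cytosol.

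The actin genes that were lower than in cytosol included Cfl2 and Tagln. Cfl2, a cofilin that severs filaments, had 20.3 CPM in insoluble, 28.3 CPM in membrane and 154 CPM in cytosol. Tagln, a smooth muscle actin-binding protein, had 2610 CPM in insoluble, 3576 CPM in membrane and 8083 CPM in cytosol. Cfl1, Pfn1, Tpm4 and Arpc5 had log2 ratios from -2.58 to -1.74 against cytosol and from -0.63 to -0.25 against membrane. Actb, beta-actin, had 1499 CPM in insoluble, 1666 CPM in membrane and 3076 CPM in cytosol, so it was highest in cytosol. The list's median log2 ratio was 0.27 against membrane, beside 0.20 over all 3110 genes, and turned to -0.15 when cUTR and aUTR reads were added. Against cytosol it was -1.04, beside 0.02.

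Of 15 tubulin and microtubule motor genes that passed, 2 (13.3%) were at least 2-fold higher than in membrane and 0 lower, while 3 (20%) were higher and 4 (26.7%) lower than in cytosol, and the shares against cytosol are near the background of 25.6% and 22.5%. Macf1, a giant linker of microtubules and actin, had 148 CPM in insoluble, 45.0 CPM in membrane and 14.7 CPM in cytosol. It was the 1 insoluble-high gene among the 15, beside 11.4% of all genes. Among members that did not pass, Dst (log2 3.7 and 4.97) and Dync1h1 (2.39 and 5.13) were past 2-fold against membrane and cytosol. Tubb3 (-0.74 and -1.14) was not higher than either. Tuba1b, an alpha-tubulin, had 1108 CPM in insoluble, 1488 CPM in membrane and 3718 CPM in cytosol. Tuba1a had 646 CPM in insoluble, 967 CPM in membrane and 1806 CPM in cytosol. Both tubulins have near-identical paralogs, and how shared reads were counted is not given in the sources used here. Among intermediate filament and lamin genes, none of the 4 that passed reached 2-fold against cytosol, but genes below the aUTR minimum did. Nes, nestin, and Plec, plectin, which links filaments to other structures, had log2 ratios of 3.33 and 4.0 against membrane and 5.96 and 6.29 against cytosol. The 8 members with a mean of 20 cUTR reads had medians of 0.99 against membrane and 0.83 against cytosol, beside 0.51 and 0.52 for the 4. Lmna, which encodes lamins A and C, had 278 CPM in insoluble, 139 CPM in membrane and 184 CPM in cytosol. Vim had 734 CPM in insoluble, 455 CPM in membrane and 539 CPM in cytosol, which is higher than in both by less than 2-fold.

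Transcripts of splicing regulators were high in the insoluble library. SR proteins bind exons and recruit the splicing machinery, and SR protein kinases control their place in nuclear speckles. Of the 29 genes of this list, all in the table, 19 passed the filter. Against membrane, 16 of the 19 were at least 2-fold higher and 0 lower, where all 3110 genes had 562 higher and 238 lower. Against cytosol 13 were higher and 0 lower, where all genes had 797 higher and 700 lower. The list's median log2 ratios were 1.74 and 1.49, and 13 members were insoluble-high, beside 11.4% of all genes. Srrm2, a scaffold of nuclear speckles, had 1048 CPM in insoluble, 139 CPM in membrane and 52.1 CPM in cytosol, with log2 ratios of 2.91 (2.75 to 3.07) and 4.32 (4.05 to 4.62). Son, the other main speckle scaffold, had log2 ratios of 2.45 and 3.71. Srsf6 had 791 CPM in insoluble, 261 CPM in membrane and 345 CPM in cytosol. Srsf2 was past 2-fold against membrane alone, at 678 CPM in insoluble, 174 CPM in membrane and 426 CPM in cytosol. By the mean of both ratios Tra2b was the lowest of the 19 that passed, with 178 CPM in insoluble, 168 CPM in membrane and 297 CPM in cytosol. The kinases Srpk1 and Srpk2 were both insoluble-high, with log2 ratios of 1.52 and 1.85 against membrane and 1.29 and 2.09 against cytosol.

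Other RNA-binding proteins were higher in part. Of 28 hnRNP and related genes that passed, 9 (32.1%) were at least 2-fold higher than in membrane and 0 lower, while 8 (28.6%) were higher and 3 (10.7%) lower than in cytosol. Beside the 25.6% of all genes that were higher than in cytosol, the share of 8 in 28 is near the background. Hnrnpa2b1, which binds nascent RNA, had 4376 CPM in insoluble, 1295 CPM in membrane and 1864 CPM in cytosol. Ddx17, an RNA helicase of splicing and miRNA processing, had 123 CPM in insoluble, 15.6 CPM in membrane and 30.3 CPM in cytosol. Hnrnpa3, of the same family as Hnrnpa2b1, had 1112 CPM in insoluble, 1057 CPM in membrane and 1822 CPM in cytosol. Qk, a regulator of splicing and mRNA stability, had 36.0 CPM in insoluble, 41.3 CPM in membrane and 222 CPM in cytosol. The list's median against cytosol was -0.05 (log2) and 0.13 when cUTR and aUTR reads were added. Of 7 cleavage and polyadenylation factors that passed, 3 were insoluble-high, namely Cpsf1, Cpsf6 and Pabpn1, beside 11.4% of all genes. Against membrane 3 (42.9%) were at least 2-fold higher and 0 lower, beside 18.1% and 7.65% of all genes. Against cytosol 3 (42.9%) were higher and 2 (28.6%) lower, beside 25.6% and 22.5%. Pabpn1, the nuclear poly(A)-binding protein, had 218 CPM in insoluble, 51.0 CPM in membrane and 80.1 CPM in cytosol.

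Chromatin regulators were high against both libraries. Of the 48 listed there, 21 passed, and 12 of these were insoluble-high, beside 11.4% of all genes. The 12 include Hdac7, whose log2 ratios were -0.02 and -0.01 when cUTR and aUTR reads were added. Against membrane 12 (57.1%) were at least 2-fold higher and 0 lower, beside 18.1% and 7.65% of all genes. Against cytosol 15 (71.4%) were higher and 1 (4.76%) lower, beside 25.6% and 22.5%. The median log2 ratios were 1.05 and 2.01. Kmt2d, a histone H3 lysine 4 methyltransferase, had 346 CPM in insoluble, 48.7 CPM in membrane and 21.3 CPM in cytosol. Chd4, the remodelling helicase of the NuRD complex, had 686 CPM in insoluble, 330 CPM in membrane and 120 CPM in cytosol. The exception past 2-fold was Cbx3, heterochromatin protein HP1 gamma, with 141 CPM in insoluble, 181 CPM in membrane and 476 CPM in cytosol. Outside the list, Mbd6, of the methyl-CpG-binding domain family, had 334 CPM in insoluble, 29.8 CPM in membrane and 41.2 CPM in cytosol. Of 34 zinc finger genes named Zfp that passed, 9 were insoluble-high and 1 insoluble-low, beside 11.4% and 2.89% of all genes. Against membrane 38.2% were at least 2-fold higher and 2.94% lower, beside 18.1% and 7.65%. Against cytosol 35.3% were higher and 14.7% lower, beside 25.6% and 22.5%. Zfp182 had 69.7 CPM in insoluble, 11.9 CPM in membrane and 12.3 CPM in cytosol, whereas Zfp706 had 56.9, 124 and 325 CPM in the same order. Zfp512b, outside the list, had 143 CPM in insoluble, 13 CPM in membrane and 20.8 CPM in cytosol.

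**Figure D3:**
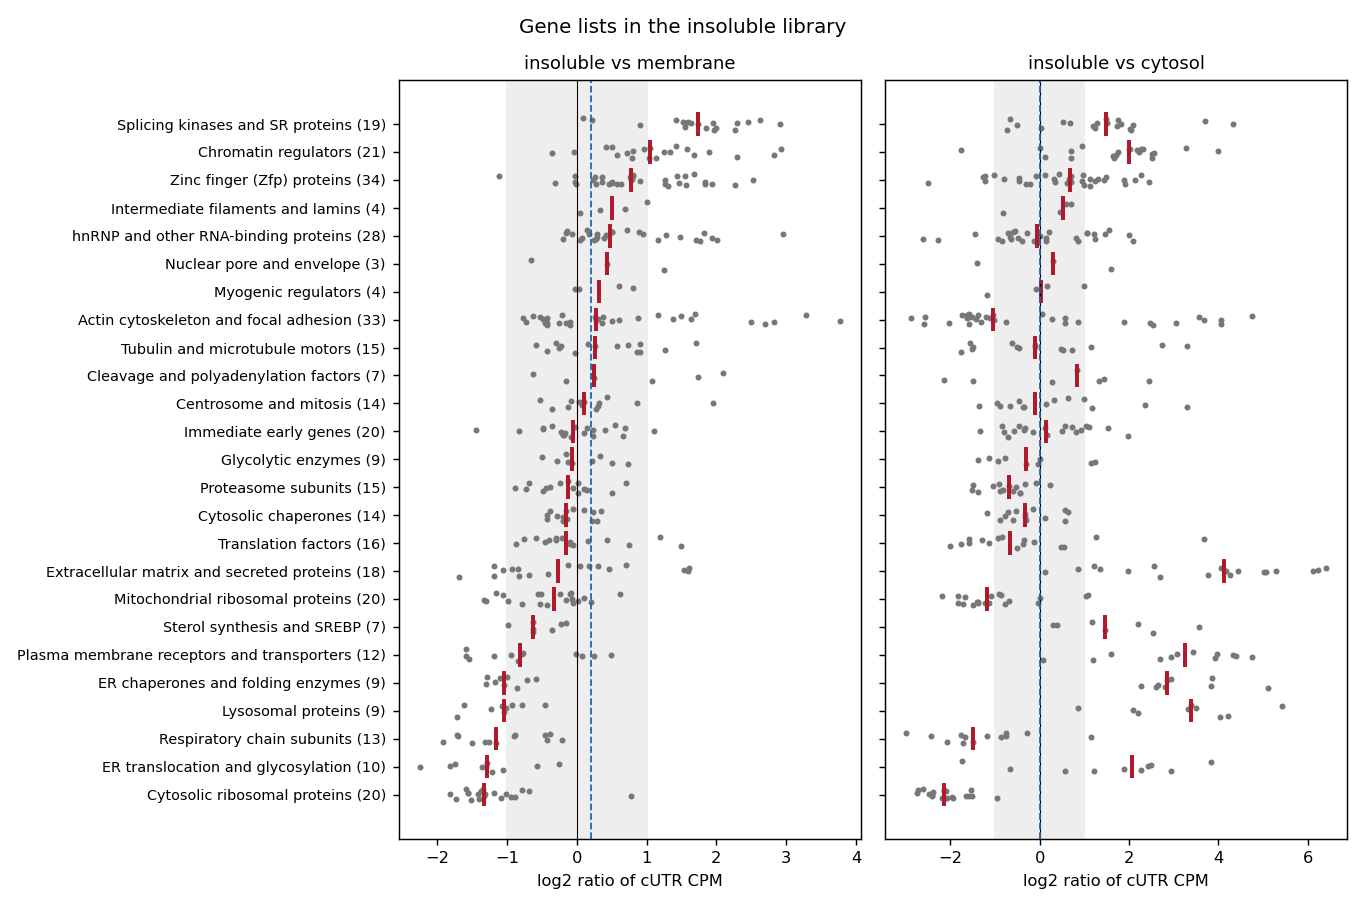
log2 ratio of cUTR CPM of insoluble against membrane (left) and against cytosol (right) for the members of each list that passed the filter (grey points, number in brackets), with the list median (red bar), the median of all 3110 genes (dashed blue) and the range within 2-fold (grey band). Splicing and chromatin lists lie right of 0 in both panels, ribosomal and respiratory lists left of 0 in both, and ER, lysosomal and extracellular matrix lists left of 0 or near it against membrane and far right of 0 against cytosol.

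Transcripts of secretory pathway proteins took an intermediate place, below membrane and far above cytosol. Hspa5, the main ER chaperone, had 541 CPM (507 to 577) in insoluble, 887 CPM (852 to 923) in membrane and 15.2 CPM (10.4 to 21.4) in cytosol. P4hb, protein disulfide isomerase, had 843 CPM in insoluble, 1736 CPM in membrane and 109 CPM in cytosol. All 9 ER chaperones and folding enzymes that passed were at least 2-fold higher than in cytosol, and 6 of the 9 were at least 2-fold lower than in membrane, with 0 higher. Median log2 ratios were -1.04 against membrane and 2.85 against cytosol. Beside each count in this paragraph stand 7.65% of all genes lower than in membrane and 25.6% higher than in cytosol. Lysosomal genes gave the same pair of directions, with 6 of 9 lower than in membrane and 8 of 9 higher than in cytosol. Cathepsin B (Ctsb) had 1106 CPM in insoluble, 2591 CPM in membrane and 110 CPM in cytosol. Among 12 plasma membrane receptors and transporters that passed, 4 were at least 2-fold lower than in membrane and 11 at least 2-fold higher than in cytosol. Cd63, a tetraspanin, had 501 CPM in insoluble, 1504 CPM in membrane and 32.7 CPM in cytosol, while the growth factor receptor Pdgfrb had 292, 208 and 10.4 CPM in the same order. Among 7 sterol synthesis genes that passed, 5 were at least 2-fold higher than in cytosol and none reached 2-fold against membrane. Srebf2, the ER-bound transcription factor of that pathway, had 564 CPM in insoluble, 632 CPM in membrane and 47.4 CPM in cytosol.

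Genes of ER translocation and glycosylation were the lowest secretory list against membrane, with a median of -1.29 (log2). Of the 10 that passed, 8 (80%) were at least 2-fold lower, beside 7.65% of all genes. Ostc, a subunit of the oligosaccharyltransferase, was lower than in both other libraries, with 61.6 CPM in insoluble, 295 CPM in membrane and 207 CPM in cytosol. Stt3a, a catalytic subunit of the same complex, had 192 CPM in insoluble, 449 CPM in membrane and 39.8 CPM in cytosol. Ganab, glucosidase II alpha, was closest to membrane, with 292, 350 and 19.9 CPM in insoluble, membrane and cytosol. Outside the list, Cnih4 and Cnih1, receptors for cargo leaving the ER, had 54.0 and 34.3 CPM in insoluble, 215 and 150 CPM in membrane, and 26.5 and 86.2 CPM in cytosol. Tspan3, a tetraspanin, had 87.7 CPM in insoluble, 352 CPM in membrane and 21.3 CPM in cytosol.

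Transcripts of type V collagen and of fibronectin were higher in the insoluble library than in the membrane library as well as the cytosol library. Col5a2 had 2455 CPM in insoluble, 851 CPM in membrane and 32.2 CPM in cytosol, with log2 ratios of 1.53 (1.46 to 1.6) and 6.23 (5.91 to 6.62). Col5a1 had 895 CPM in insoluble, 293 CPM in membrane and 12.3 CPM in cytosol. Fn1, fibronectin, had 13339 CPM in insoluble, 4428 CPM in membrane and 407 CPM in cytosol. These 3 genes are the insoluble-high members among 18 matrix genes that passed, beside 11.4% of all genes. Against membrane 16.7% of the 18 were at least 2-fold higher, near the 18.1% of all genes, and 4 (22.2%) lower, beside 7.65%. Against cytosol 16 (88.9%) were higher and 0 lower, beside 25.6% and 22.5%. Among members that did not pass, Col4a1 (log2 1.32 and 5.95), Col4a2 (1.51 and 5.4) and Tnc (1.28 and 6.51) were past 2-fold against membrane and cytosol. Col3a1 (0.19 and 6.86) and Fstl1 (-1.22 and 3.16) were not higher than both. Col1a1 was higher by less than 2-fold, with 894 CPM in insoluble, 547 CPM in membrane and 9.95 CPM (6.16 to 15.2) in cytosol. In contrast, Bgn, the small proteoglycan biglycan, had 1203 CPM in insoluble, 2518 CPM in membrane and 468 CPM in cytosol. Thbs2, a thrombospondin, had 388 CPM in insoluble, 425 CPM in membrane and 9.48 CPM in cytosol. Ltbp3, which binds latent TGF-beta, had 766 CPM in insoluble, 495 CPM in membrane and 15.2 CPM in cytosol, and Pkd1, a large membrane protein, was insoluble-high with 447, 164 and 12.3 CPM in the same order.

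Transcripts of ribosomal proteins were low in the insoluble library against both others. Of the 62 listed there, 20 passed the filter. Of these, 15 (75%) were at least 2-fold lower than in membrane and 0 higher, beside 7.65% and 18.1% of all genes. Against cytosol 19 (95%) were lower and 0 higher, beside 22.5% and 25.6%. Median log2 ratios were -1.33 and -2.13, and 15 members were insoluble-low, beside 2.89% of all genes. Rpl32 had 591 CPM in insoluble, 1563 CPM in membrane and 3988 CPM in cytosol. Rps20 had 388 CPM in insoluble, 1140 CPM in membrane and 2554 CPM in cytosol. Rps15a had 82.5 CPM in insoluble, 292 CPM in membrane and 440 CPM in cytosol. The exception in sign was Rps2, with 26.1 CPM in insoluble, 15.3 CPM in membrane and 51.2 CPM in cytosol. In aUTR reads the medians of the list were -0.08 against membrane and -1.21 against cytosol, nearer to 0 than in the cUTR. Ribosomal protein genes have many processed pseudogenes, and how reads shared with them were counted is not given in the sources used here.

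Translation factors did not follow the ribosomal proteins as a group. Eif5a had 1224 CPM in insoluble, 2053 CPM in membrane and 4106 CPM in cytosol, and Eif4e, which binds the cap, had 48.8, 90.0 and 199 CPM in the same order. Eif4g1, the large scaffold that joins Eif4e to the ribosome, was insoluble-high with 432 CPM in insoluble, 189 CPM in membrane and 33.2 CPM in cytosol. Eif4a2, the helicase of the same complex and a host of small nucleolar RNAs, had 358 CPM in insoluble, 127 CPM in membrane and 148 CPM in cytosol. Of the 16 that passed, 2 (12.5%) were at least 2-fold higher and 0 lower against membrane, beside 18.1% and 7.65% of all genes. Against cytosol 2 (12.5%) were higher and 6 (37.5%) lower, beside 25.6% and 22.5%. The shares of higher genes were thus below those of all genes.

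Respiratory chain genes were also low. Of 13 respiratory chain genes that passed, 7 (53.8%) were at least 2-fold lower than in membrane and 0 higher, beside 7.65% and 18.1% of all genes. Against cytosol 8 (61.5%) were lower and 1 (7.69%) higher, beside 22.5% and 25.6%. Of the 13 genes 6 were insoluble-low, beside 2.89% of all genes. The list's median log2 ratios against membrane and cytosol were -1.15 and -1.5 in cUTR reads. In aUTR reads they were -0.42 and -0.94, nearer to 0. Cox6c, a subunit of cytochrome c oxidase, had 347 CPM in insoluble, 1129 CPM in membrane and 1101 CPM in cytosol, and Cox8a of the same complex had 82.5, 312 and 352 CPM. Sdha, the large flavoprotein of complex II, was the 1 gene past 2-fold in the other direction, with 203 CPM in insoluble, 236 CPM in membrane and 92.4 CPM in cytosol. Tomm20, the receptor for protein import into mitochondria, had 183 CPM in insoluble, 718 CPM in membrane and 429 CPM in cytosol. Of 20 mitochondrial ribosomal protein genes that passed, 4 (20%) were at least 2-fold lower than in membrane and 0 higher, beside 7.65% lower and 18.1% higher of all genes. Against cytosol 12 (60%) were lower and 2 higher, beside 22.5% and 25.6%, and the higher ones were Mrps22 at 1.08 and Mrps5 at 1.05 (log2).

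Among proteasome, glycolytic and cytosolic chaperone genes, 0 of 15, 0 of 9 and 0 of 14 were past 2-fold against membrane, with median log2 ratios of -0.13, -0.07 and -0.15 beside 0.20 over all genes. Against cytosol 4 of 15 (26.7%), 2 of 9 (22.2%) and 1 of 14 (7.14%) were at least 2-fold lower, and 2 glycolytic genes (22.2%) were higher. Beside the 22.5% of all genes that were lower and the 25.6% that were higher, the proteasome and glycolytic shares of lower genes and the glycolytic share of higher genes are near the background. Pkm, pyruvate kinase, had 4357 CPM in insoluble, 3445 CPM in membrane and 4462 CPM in cytosol, and Hsp90ab1 had 923, 860 and 842 CPM in the same order. Immediate early genes, which are transcribed soon after a stimulus and have short-lived mRNAs, showed 1 higher and 1 lower of 20 (5% each) against membrane, beside 18.1% and 7.65% of all genes. Against cytosol 4 were higher (20%) and 1 lower (5%), beside 25.6% and 22.5%, so that the higher share is near the background. Jun had 356 CPM in insoluble, 303 CPM in membrane and 123 CPM in cytosol. Of 14 centrosome and mitosis genes that passed, 1 was insoluble-high, beside 11.4% of all genes. It was Numa1, which organises the spindle poles and lies in the interphase nucleus. Numa1 had 322 CPM in insoluble, 83.3 CPM in membrane and 32.2 CPM in cytosol. Of the 14, 7.14% were higher and 0 lower than in membrane, and 28.6% higher and 7.14% lower than in cytosol. Among members that did not pass, Pcnt (log2 1.64 and 3.71) and Cenpf (1.45 and 2.74) were past 2-fold against membrane and cytosol. Bub3 (-0.32 and -0.78) was not. The lowest genes against cytosol included Sh3bgrl and Mtpn. Sh3bgrl had 27.3 CPM in insoluble, 41.7 CPM in membrane and 391 CPM in cytosol, and Mtpn, myotrophin, had 23.2, 36.8 and 301 CPM. Ftl1, the ferritin light chain, had 474 CPM in insoluble, 1123 CPM in membrane and 5298 CPM in cytosol, and it too has many near-identical copies.

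Long 3′ UTR forms had a similar median share in the insoluble and membrane libraries and a lower one in the cytosol library. Over the 3110 genes, the median share of reads in the aUTR was 70.9% in insoluble, 71.1% in membrane and 64.9% in cytosol. Per gene, the median change of the log2 aUTR to cUTR ratio was -0.05 against membrane (quartiles -0.32 and 0.28, 3951 genes) and 0.46 against cytosol (quartiles 0.11 and 0.82, 3217 genes). Against cytosol the ratio was higher in 2583 of the 3217 genes. Membrane against cytosol gave a median of 0.47 over the 3110 genes. Where the 3′ end table gave a pair of poly(A) sites, genes were put in 4 bins by the distance between the sites, and the median change against cytosol was 0.37, 0.38, 0.49 and 0.55 from the bin of 25 to 239 nt to the bin of 1448 to 9871 nt (401 or 402 genes each). Against membrane the same bins gave -0.07, -0.09, 0.01 and 0.03. These pairs come from the 3′ end table, and it is not given in the sources used here whether the RNA-seq regions use the same sites.

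Some genes went well beyond the general shift. After the median was subtracted, the ratio was at least 2-fold higher in insoluble than in membrane in 275 genes and at least 2-fold lower in 97 (6.96% and 2.46% of 3951). Against cytosol it was higher in 193 and lower in 182 (6% and 5.66% of 3217). Because the cUTR count enters both the gene level and the ratio, a gene low in cUTR reads tends to a high ratio, and no support for one is drawn from the other. Cox6c had 23.3% of its reads (20.4 to 26.5%) in the aUTR in insoluble, 1.75% (1.32 to 2.27%) in membrane and 1.36% (0.93 to 1.91%) in cytosol. Rps12 had 58.4% in insoluble, 8.09% in membrane and 1.88% in cytosol, and Rps27a, a ubiquitin and ribosomal protein fusion, had 47.7%, 10.0% and 2.37%. Ost4, a small oligosaccharyltransferase subunit, had 58.2% in insoluble, 8.34% in membrane and 5.18% in cytosol. In these 4 genes aUTR reads themselves were more abundant in the insoluble library, for example 114, 18.5 and 13 aUTR CPM for Rps12 in insoluble, membrane and cytosol. Minos1, a protein of mitochondrial cristae, had 35.6% in insoluble, 5.78% in membrane and 5.16% in cytosol. Of the 20 ribosomal protein genes, 18 had a higher ratio in insoluble than in membrane and 19 than in cytosol, with median log2 changes of 1.06 and 1.51.

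In a further set the aUTR share of insoluble was far from that of cytosol. Brd7, a bromodomain protein, had 97.5% of reads in the aUTR in insoluble, 96.5% in membrane and 63.7% in cytosol. Vdac3, a channel of the outer mitochondrial membrane, had 43.9% in insoluble, 44.9% in membrane and 5.57% in cytosol. Nelfcd, a subunit of the NELF complex that pauses RNA polymerase II, had 91.7%, 96.9% and 46.7%, and the RNA helicase Ddx39 had 87.4%, 88.8% and 38.5%. Psmc3, a proteasome ATPase, had 88.9% in insoluble, 79.7% in membrane and 31.7% in cytosol. The converse held for Aebp1, a secreted matrix protein, with 5.60% in insoluble, 5.44% in membrane and 72.4% (67.0 to 77.3%) in cytosol. Its cytosol value rests on 39.8 cUTR CPM, with 1576 CPM in insoluble and 1435 CPM in membrane. Tmem184b had 35.8% in insoluble, 33.2% in membrane and 81.8% in cytosol. Ctsz, the lysosomal protease cathepsin Z, had 24.5% in insoluble, 7.65% in membrane and 79.0% in cytosol, so that insoluble lay between the others.

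Genes with a lower aUTR share in the insoluble library than in both others included several nuclear regulators. Hdac7, a histone deacetylase, had 42.6% (41.2 to 44.1%) of reads in the aUTR in insoluble, 88.2% in membrane and 85.1% in cytosol. Its cUTR level was 1458 CPM in insoluble, 296 CPM in membrane and 320 CPM in cytosol, whereas its aUTR level was 728, 1555 and 1671 CPM in the same order. The direction of Hdac7 thus depends on the region, and with both regions added its log2 ratios were -0.02 and -0.01. Phf1, a Polycomb-associated protein, had 67.2% in insoluble, 93.8% in membrane and 96.2% in cytosol. Mau2, which loads cohesin, had 70.2%, 87.0% and 96.1%, and Scaf4, which acts at polyadenylation sites, had 88.0%, 97.1% and 99.0% in the same order. Smtn, smoothelin, had 68.5% in insoluble, 89.7% in membrane and 91.6% in cytosol. Setdb1 and Tnip1 were lower than in membrane and overlapped cytosol in their intervals, with 20.2% and 19.7% in insoluble, 52.2% and 50.1% in membrane, and 25.0% and 19.6% in cytosol. Reads in introns or in an overlapping gene were not separable in a table of region counts, and their part in these shares was not tested.

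**Figure D4:**
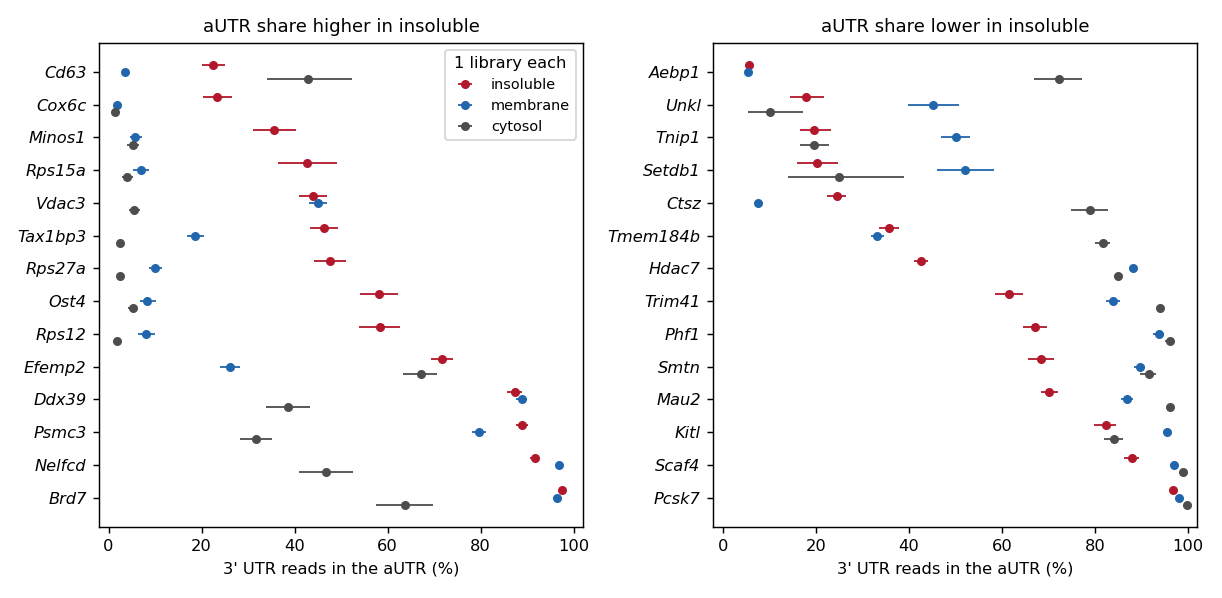
Share of a gene's 3′ UTR reads that lie in the aUTR, in percent, for the genes with the largest increases (left) and decreases (right) of the aUTR to cUTR ratio in the insoluble library against membrane or cytosol, 1 library each; bars are exact binomial 95% intervals. Rps12 lies at 58.4% in insoluble against 8.09% in membrane and 1.88% in cytosol, and Hdac7 at 42.6% against 88.2% and 85.1%.

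The 3′ end libraries were not used to choose the genes and have replicates, so they show how insoluble-high and insoluble-low genes are placed between membrane and cytosol, and between polysomes and monosomes. They hold no insoluble library. The membrane and cytosol RNA-seq levels helped choose both sets, so placement between membrane and cytosol is not independent of that choice. The median RNA-seq level of insoluble-low genes was 157.7 CPM in membrane and 234.8 CPM in cytosol. For insoluble-high genes it was 35.7 and 29.4 CPM. Beforehand, the RNA-seq ratio of membrane to cytosol was set beside that of the whole-fraction 3′ end libraries, 1 of each. Over 2553 genes the ratios had a Pearson correlation of 0.84 and a Spearman correlation of 0.71 across genes, which are not independent replicates, and the same sign in 80.8%.

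Insoluble-low genes were mostly on the cytosol side. Genes were called with the quasi-likelihood test of edgeR at a Benjamini-Hochberg adjusted p under 0.05 over 11176 genes, of which 23.2% were higher and 11.5% lower in membrane than in cytosol. Of the 354 insoluble-high genes 323 were tested, and 65 were higher (20.1%) and 13 lower (4.02%) in membrane, with a median log2 change of 0.36, beside 0.17 over all genes. Of the 90 insoluble-low genes 82 were tested, and 3 were higher (3.66%) and 47 lower (57.3%), with a median of -0.95. The other 2447 RNA-seq genes tested had 503 higher (20.6%) and 364 lower (14.9%), with a median of -0.02. The share of higher calls among insoluble-high genes is thus near the background of all genes, whereas the share of lower calls among insoluble-low genes is above it. With the replicate number as a block, the insoluble-high genes had 131 higher and 34 lower and the insoluble-low genes 9 higher and 61 lower, where 33.6% of all genes were higher and 22.5% lower. Leaving out single libraries gave 33 to 56 higher calls among insoluble-high genes, with 33 without membrane monosome replicate 1, 40 without cytosol polysome replicate 1 and 43 without membrane polysome replicate 2. The 13 lower calls among insoluble-high genes became 10 to 21, with 21 without membrane monosome replicate 1. The lower calls among insoluble-low genes were 37 to 50.

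The named genes show the spread behind these counts, in CPM of the 3′ end libraries. Actn1 had 143 and 437.5 CPM in membrane polysomes and 223 and 566 CPM in membrane monosomes, against 76.6 and 258 CPM in cytosol polysomes and 76.8 and 202 CPM in cytosol monosomes. In each of the 4 groups replicate 2 was more than 2-fold above replicate 1. Actn1 was higher in membrane by 1.41 ± 0.50 (log2, SE, edgeR adjusted p = 0.0454). With the replicate block, which takes up a shift shared by same-numbered libraries, the change was 1.40 ± 0.15 (edgeR adjusted p = 7.06e-10). Whether same-numbered libraries share a culture is not stated. Leng8 had 14.0 and 17.6 CPM in membrane polysomes and 17.6 and 16.7 CPM in membrane monosomes, against 17.0 and 11.9 CPM in cytosol polysomes and 9.64 and 8.75 CPM in cytosol monosomes, a change of 0.75 ± 0.25 (edgeR adjusted p = 0.0302). Myh9 was called under the block only, with a change of 0.45 ± 0.44 (edgeR adjusted p = 0.475, and 0.0136 with the replicate block). Eif4g1, which is not a secreted protein, was higher in membrane by 1.66 ± 0.29 (log2; edgeR adjusted p = 0.00067). Among matrix genes Col5a1 had 181 and 320 CPM in membrane polysomes and 245 and 405 CPM in membrane monosomes, against 15.5 and 14.1 CPM in cytosol polysomes and 58.1 and 53.9 CPM in cytosol monosomes, so that the fractions did not overlap. Hnrnpa2b1 did not pass the test, at -0.03 ± 0.21 (edgeR adjusted p = 0.944). Of the insoluble-low genes, Rpl32 had 98.1 and 155 CPM in membrane polysomes and 188 and 205 CPM in membrane monosomes, against 390.5 and 567 CPM in cytosol polysomes and 1375 and 905 CPM in cytosol monosomes, lower in membrane by -1.99 ± 0.32 (log2; edgeR adjusted p = 0.00032). Ostc, insoluble-low but an ER protein, went the other way at 2.47 ± 0.39 (edgeR adjusted p = 0.00029).

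Between polysomes and monosomes, the median insoluble-high gene was near 0 and the median insoluble-low gene on the monosome side. Over all 11176 genes 10.7% were higher and 8.19% lower in polysomes than in monosomes. Among the 323 insoluble-high genes 24 were higher (7.43%) and 19 lower (5.88%), with a median log2 change of 0.03, beside 0.06 over all genes. Among the 82 insoluble-low genes 5 were higher (6.1%) and 20 lower (24.4%), with a median of -0.34. The other RNA-seq genes had 535 higher (21.9%) and 125 lower (5.11%), with a median of 0.37. With the replicate block the counts were 69 higher (21.4%) and 54 lower (16.7%) for insoluble-high genes. They were 14 higher (17.1%) and 34 lower (41.5%) for insoluble-low genes. The other genes had 1079 higher (44.1%) and 333 lower (13.6%), beside 25.3% and 19.1% of all genes. Leaving out single libraries gave 6 to 22 higher calls among insoluble-high genes, with 6 without cytosol polysome replicate 2, 9 without membrane monosome replicate 1, 10 without membrane polysome replicate 1, 10 without cytosol monosome replicate 1, 13 without membrane monosome replicate 2 and 15 without membrane polysome replicate 2. The 19 lower insoluble-high genes became 10 to 16, with 10 without membrane polysome replicate 1 and 11 without cytosol polysome replicate 1. The 20 lower insoluble-low genes became 12 to 18, with 12 without cytosol polysome replicate 2 and 13 without membrane polysome replicate 1. The 5 higher insoluble-low genes became 2 without membrane monosome replicate 1 and 3 without membrane polysome replicate 1. DESeq2 called 23 insoluble-high genes higher and 37 lower, beside 1113 and 1393 of all genes. Fn1 was lower in polysomes by -1.85 ± 0.22 (log2; edgeR adjusted p = 0.00034), with 180 and 194 CPM in membrane polysomes and 570.5 and 439 CPM in membrane monosomes. Rps20 was lower by -1.61 ± 0.47 (edgeR adjusted p = 0.0295), and Hnrnpa2b1 was higher by 1.95 ± 0.22 (edgeR adjusted p = 0.00025). Myh9 did not pass, at -0.24 ± 0.44 (edgeR adjusted p = 0.755). The difference in shares between these gene sets was not tested.

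**Figure D5:**
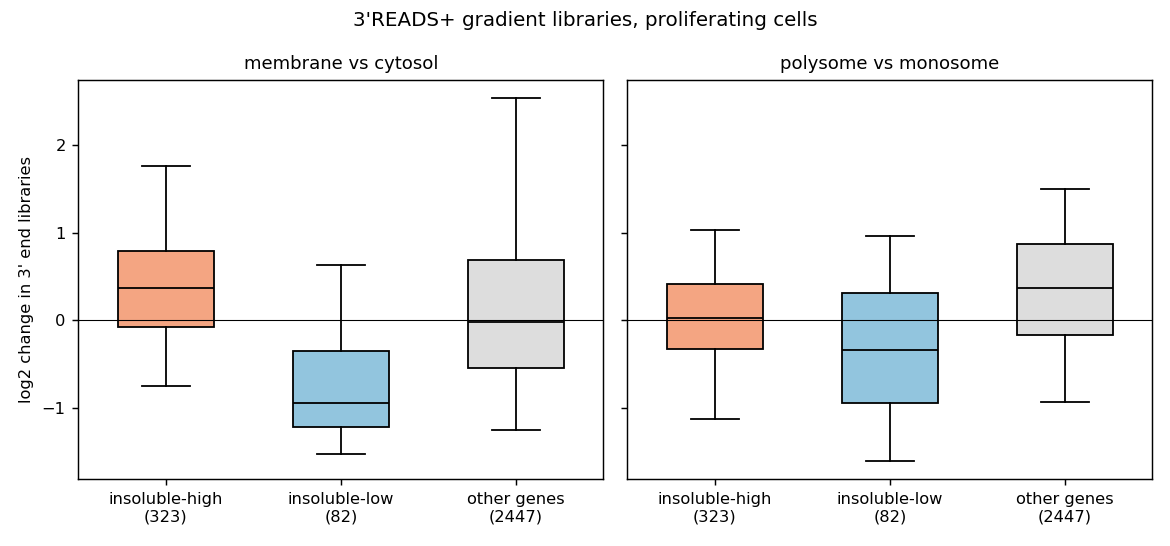
log2 change in the 3′ end gradient libraries of proliferating cells, membrane against cytosol (left) and polysome against monosome (right), for 323 insoluble-high, 82 insoluble-low and 2447 other RNA-seq genes; boxes span the quartiles with the median as a line, and whiskers run from the 5th to the 95th percentile of genes. Insoluble-low genes have a median of -0.95 on the left, and insoluble-high genes have medians of 0.36 on the left and 0.03 on the right.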

How the data were processed

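Deposited read counts of the RNA-seq table (cUTR and aUTR of 3 libraries) and of the 3′READS+ poly(A)-site table were used as the authors left them, per the file headers. The tools in the submitters' processing notes are STAR 2.5.2, Bowtie2 and cutadapt, and the build is mm9. How reads were counted, and whether by strand, is not given in the sources used here. A date-converted symbol listed for 2 entries was left out. CPM scales each library to its own cUTR total, and ratios used a pseudocount of 1 read. Only values of at least 2-fold are counted as past the fold, since 1 library per fraction allows no test. 3′ end counts were summed per symbol over sites. All 16 gradient libraries (8 groups of 2) entered 1 fit of edgeR 4.0.16 in R 4.3.3 (filterByExpr, TMM, robust quasi-likelihood F test, Benjamini-Hochberg adjustment at 0.05), and contrasts were taken within proliferating cells. DESeq2 1.42.0 was an alternative. The procedure was tested on simulated data. Same-numbered proliferating gradient libraries deviated together in all 6 pairs of groups (correlation 0.47 to 0.63), so blocked values are given where they move a count by more than 1.5 times.

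Genes and lists were chosen with earlier results of these data known. Named genes were the 10 highest and 10 lowest against both libraries and in each comparison (mean of at least 20 CPM), from each list the pair with the highest level and those with the highest and lowest mean ratio, the 8 largest and 8 smallest ratio changes in each comparison (at least 50 reads per region), and a set of fraction checks; other list members named, and the 3′ end examples, were chosen after their values were seen. The alternatives were other scalings, filters, pseudocounts, tests and left-out libraries. Protein features and sequences were not used here. One named gene is not reported here.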

Additional observations from a re-analysis of the deposited data

How the results depend on the processing

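Counts of genes past 2-fold depended on the read filter. In the order higher and lower than membrane, higher and lower than cytosol, higher and lower than both, they were 1477, 767, 2797, 1369, 1103 and 293 with a mean of 20 cUTR reads and no aUTR minimum, 405, 198, 307, 410, 149 and 48 with 50 reads in each region, and 2720, 1001, 4198, 1753, 1995 and 379 with no filter. Genes lower than both numbered 139 with TMM scaling, 55 with cUTR and aUTR reads added and 136 with the median set to 0. The all-gene median turned to -0.01 against membrane and -0.075 against cytosol with TMM, and to -0.177 against cytosol with 50 reads. With cUTR and aUTR reads added, the direction against membrane turned for Hdac7 (-0.02), Kitl (-0.607) and Scaf4 (-0.72), and against cytosol for Hdac7 (-0.006), Mau2 (-0.456), Pcsk7 (-2.049), Phf1 (-0.097), Scaf4 (-1.493), Smtn (-0.066), Tmem184b (-0.033) and Trim41 (-1.527); all have ratios of aUTR to cUTR that are lower in insoluble. Of the other named values, 154 stayed within counting error and 139 moved outside it. TMM scaling and the median set to 0 lowered every log2 ratio against membrane by about as much as the all-gene median of 0.19. Named genes above 0 by less than that therefore changed sign against membrane, among them Tra2b (0.09) and Hnrnpa3 (0.07). A pseudocount of 5 reads kept all 304 named values within counting error. For the ratio against cytosol, 526 genes were higher and 100 lower without centring. With 50 reads the median changes were -0.079 (129 higher, 40 lower) against membrane and 0.43 (86 and 67) against cytosol, and with 10 reads the counts were 428 and 168, and 304 and 318.

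In the 3′ end libraries, calls of membrane against cytosol among insoluble-high genes were 25 lower with DESeq2, 21 lower with its size factors, and 39 higher and 21 lower without a count filter, and insoluble-low genes had 5 higher with proliferating libraries alone. DESeq2 called 1949 of all genes lower. For polysome against monosome, DESeq2 gave 23 higher and 37 lower among insoluble-high genes and 1113 and 1393 among all, and 15 insoluble-high genes were higher without a filter. The replicate block gave 131 higher and 34 lower insoluble-high genes and 9 higher insoluble-low genes for membrane against cytosol, and 69 and 54 insoluble-high, 14 and 34 insoluble-low and 2826 and 2140 of all genes for polysome against monosome, with 2519 of all genes lower in membrane. The cause of these shifts was not tested. Leaving out single proliferating libraries gave, for membrane against cytosol, 33 to 56 higher and 10 to 21 lower insoluble-high genes, 2 to 3 higher and 37 to 50 lower insoluble-low genes, and 1863 to 2254 higher and 925 to 1635 lower of all genes. For polysome against monosome it gave 6 to 22 higher and 10 to 16 lower insoluble-high genes, 2 to 5 higher and 12 to 18 lower insoluble-low genes, and 530 to 932 higher and 535 to 743 lower of all genes. A lone library in a group was then assumed to vary like the other groups. The ratio per base and the classes of hydrophobic protein stretches, with both of their thresholds, were not run, since no region lengths or protein table were used here.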
